A study of Oryza sativa with 2 samples.

Results

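The 9 clade A protein phosphatase 2C (PP2C) genes of rice, which act in signalling by the hormone abscisic acid (ABA), were examined in young panicles of a wild-type line and of the lf2 mutant. They were chosen as a gene family, by locus identifier and with earlier results of these data known, by a rule that sets no condition on their levels. They are 9 of the 57446 genes in the deposited table. All 9 symbols, PP2C06, PP2C08, PP2C09, PP2C30, PP2C49, PP2C50, PP2C51, PP2C53 and PP2C68, had an entry in the RefSeq gene table of assembly ASM3414082v1, on the chromosome and in the order that their locus identifiers give. Panicles shorter than 2 cm were collected from XD1B, the wild type, and from a line mutated in LATERAL FLORET 2 (lf2). That gene, by the series title, codes for a remodeller of chromatin of the SNF2 kind with a role in the spikelet's axillary meristem. The labels give a genotype for each sample and no allele, age, treatment or number of pooled plants. A single library of each genotype was sequenced. The deposited values were scaled to totals of 29111345 fragments for XD1B and 27373728 for lf2, as recovered from those values. Since each genotype has 1 library, no difference could be set against the spread between replicates, and no test was made. Intervals given below are 95% intervals for counting error only.

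ABA is the plant hormone of water deficit and of seed dormancy. In the absence of ABA, clade A PP2C enzymes keep SnRK2 kinases dephosphorylated and inactive. When ABA binds a receptor of the PYL family, the receptor docks on the phosphatase and blocks its active site, the kinases are released, and bZIP transcription factors are phosphorylated and switch on genes such as dehydrins. In Arabidopsis, several clade A PP2C genes are themselves induced by ABA, which gives the pathway a negative feedback.

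Levels are given as FPKM, fragments per kilobase of gene length and per 1000000 fragments of the library, so that genes can be compared with each other. PP2C30 and PP2C68 were far higher in the lf2 library, PP2C49 and PP2C09 moderately higher, and the other 5 genes stood within 1.36-fold of the wild type in either direction. Differences were measured on the log2 scale after adding 1 to each FPKM value, as lf2 over XD1B. A gene counted as higher at 1 or more and as lower at -1 or less, a 2-fold difference; this rule concerns size alone. All 9 members reached FPKM 1 in at least 1 library, PP2C68 only in lf2. Of the 9, PP2C30 and PP2C68 (2 genes) passed the 2-fold rule upwards and 0 passed it downwards. The background is the 22150 genes that reached FPKM 1 in at least 1 library, of which 15.3% passed upwards and 8.23% downwards. At 4-fold the same 2 members passed upwards, against 8.27% of all genes. The count of 2 of 9 (22.2%) is thus near the share of all genes. The median log2 ratio of the 9 members was 0.27, and that of all 22150 genes was -0.31.

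**Figure D1:**
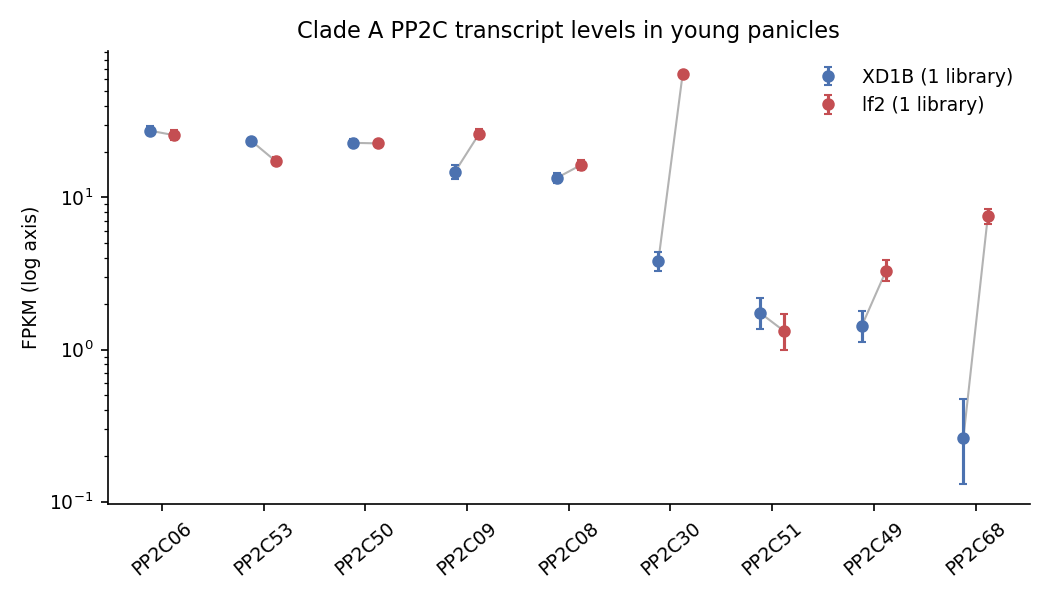
FPKM of each clade A PP2C gene on a log axis, in XD1B (blue) and lf2 (red), 1 library each, ordered by the XD1B level; bars are 95% counting intervals. PP2C30 goes from 3.81 to 65.2 and PP2C68 from 0.263 to 7.54. PP2C06, PP2C50 and PP2C53 stand at 27.5, 22.9 and 23.5 in XD1B and at 25.7, 22.7 and 17.3 in lf2.

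PP2C30 (LOC_Os03g16170, chromosome 3) encodes a phosphatase that in rice binds a PYL receptor and the kinase SAPK2. It stood at FPKM 3.81 in XD1B and 65.2 in lf2. These values rest on at least 199 and 3204 fragments, and the ratio was 17.1 (14.8 to 19.9). Its log2 ratio of 3.78 was reached or exceeded by 2.93% of the 22150 genes. By FPKM it moved from place 16039 among all genes in XD1B to place 1849 in lf2, and within the family from the sixth place to the first.

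PP2C68 (LOC_Os09g15670, chromosome 9) is listed in RefSeq also as SIPP2C1 and PP108. The gene is stress- and ABA-induced in rice seedlings, and SIPP2C1 has been studied in rice for a role in panicle development. It stood at FPKM 0.263 in XD1B, the lowest of the family, and at 7.54 in lf2. The fragment numbers were at least 11 and 296, so the ratio of 28.6 has a wide interval, 15.8 to 58.0. Its log2 ratio of 2.76 is smaller than that of PP2C30 although its FPKM ratio is greater, because the added 1 weighs more on low values. A log2 ratio as high or higher was found for 5.50% of genes.

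PP2C49 (LOC_Os05g38290, chromosome 5) was low in both libraries, at FPKM 1.43 in XD1B and 3.31 in lf2. The ratio was 2.32 (1.74 to 3.11), from at least 72 and 157 fragments. PP2C09 (LOC_Os01g62760, chromosome 1), a negative regulator of ABA signalling and drought tolerance in rice, stood at 14.7 and 26.3, 1.79 times the XD1B level (interval 1.58 to 2.03). Their log2 ratios of 0.83 and 0.80 lay just outside the 2-fold rule, and 17.4% and 17.6% of all genes had ratios as high or higher. Both genes pass the rule, at 1.14 and 1.18, once lf2 is rescaled so that the median gene, over genes that reach FPKM 5 in both libraries, has a ratio of 1. That rescaling makes 4 members at least 2-fold higher, against 19.6% of all genes under the same scaling, and 0 at least 2-fold lower, against 1.73%.

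RefSeq lists PP2C06, PP2C53 and PP2C50 also as ABIL1, ABIL2 and ABIL3, for their likeness to the Arabidopsis phosphatase ABI1. These were the highest members in XD1B. Together they summed to FPKM 73.9 in XD1B and 65.6 in lf2, a ratio of 0.888. The other 6 members summed to 35.4 and 120, a ratio of 3.39, but PP2C30 alone held 3.81 and 65.2 of these sums. Single ratios among those 6 ran from 0.756 for PP2C51 to 28.6 for PP2C68, so they did not move as a group. PP2C06 (LOC_Os01g40094, chromosome 1) stood at FPKM 27.5 in XD1B and 25.7 in lf2. Its ratio of 0.934 (0.844 to 1.03) had an interval that includes equal levels. PP2C50 (LOC_Os05g46040, chromosome 5), whose protein has been crystallised in complex with a rice PYL receptor, stood at 22.9 and 22.7, 0.992 times the XD1B level (interval 0.917 to 1.07). PP2C53 (LOC_Os05g51510, chromosome 5), which lowers ABA sensitivity when overexpressed in rice, stood at 23.5 and 17.3, 0.735 times the XD1B level (interval 0.678 to 0.796). Of the 9 members PP2C53 had the lowest log2 ratio, -0.42, and 58.1% of all genes had a ratio as high or higher. On the scale rescaled to the median gene the log2 ratios of PP2C06, PP2C50 and PP2C53 were 0.29, 0.37 and -0.05, so the direction of the first 2 turns with the scaling. This grouping by the name ABIL was made after the values had been seen and is a description.

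PP2C08 (LOC_Os01g46760, chromosome 1) stood at FPKM 13.4 in XD1B and 16.4 in lf2, 1.22 times the XD1B level (interval 1.09 to 1.36). PP2C51 (LOC_Os05g49730, chromosome 5), a phosphatase that promotes seed germination in rice, was low in both libraries, at 1.74 and 1.32. The ratio of 0.756 (0.523 to 1.09), from at least 76 and 54 fragments, does not separate the libraries at this depth. PP2C51 was the lowest of the family in lf2 and PP2C68 in XD1B.

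The order of levels within the family therefore differed between the libraries. In XD1B it ran PP2C06, PP2C53, PP2C50, PP2C09, PP2C08, PP2C30, PP2C51, PP2C49 and PP2C68. Counting intervals overlapped between PP2C53 and PP2C50, between PP2C09 and PP2C08, and between PP2C51 and PP2C49. Overlap does not decide whether such neighbours in the order differ, and no test between them was made. In lf2 the order was PP2C30, PP2C09, PP2C06, PP2C50, PP2C53, PP2C08, PP2C68, PP2C49 and PP2C51. Here the intervals of PP2C09 and PP2C06, of PP2C06 and PP2C50, and of PP2C53 and PP2C08 overlapped.

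Summed over the 9 genes, FPKM was 109 in XD1B and 186 in lf2, 1.70 times the XD1B level (interval 1.64 to 1.76). Without PP2C30 the sums were 105 and 120, 1.14 times the XD1B level (interval 1.10 to 1.19), so 1 gene made up most of the gap. PP2C30 supplied 3.48% of the summed level in XD1B and 35.1% in lf2. PP2C06 went from 25.2% to 13.8% and PP2C53 from 21.5% to 9.31% of the sum, although PP2C06 itself hardly differed in FPKM. PP2C68 went from 0.241% to 4.06%. In bulk tissue, more cells that express a gene and more RNA per cell cannot be told apart.

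**Figure D2:**
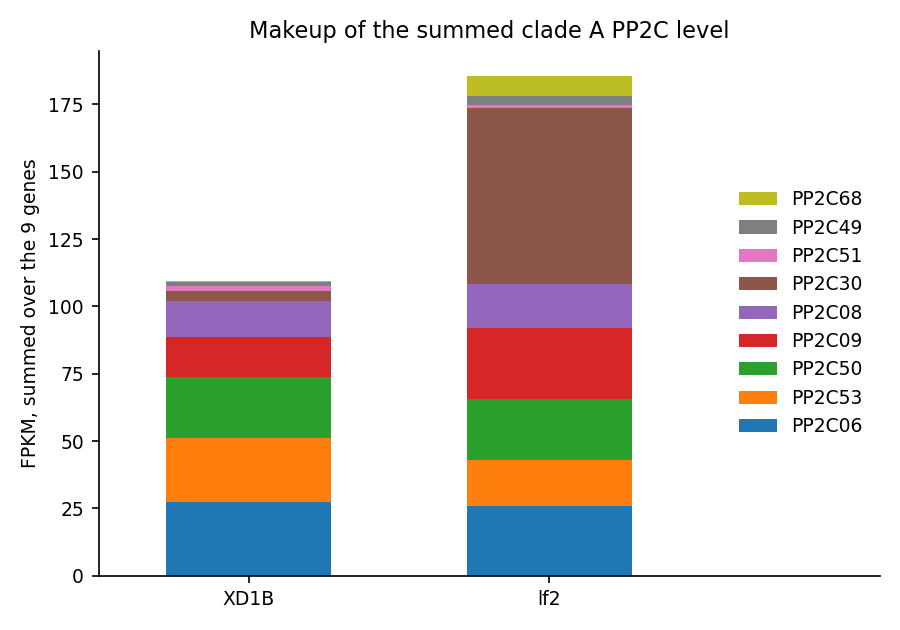
FPKM of the 9 clade A PP2C genes stacked for each library, on an axis that starts at 0. The stack reaches 109 in XD1B and 186 in lf2, and the PP2C30 segment grows from 3.81 to 65.2.

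PP2C30, PP2C68 and PP2C09 had higher log2 ratios than the measured loci beside them. The 5 listed loci on each side were taken in the order of their identifiers, 90 in all, of which 48 reached FPKM 1. Of these 48 neighbours 7 (14.6%) passed the 2-fold rule upwards and 0 downwards, against 15.3% and 8.23% of all genes. Around PP2C30, 6 measured neighbours had log2 ratios from -0.62 to 1.13, below its own 3.78, and 1 of them passed the 2-fold rule upwards. Around PP2C68, 5 measured neighbours lay between -0.62 and 0.71. PP2C09, which did not pass the 2-fold rule, also lay above its 5 measured neighbours, at 0.80 against -0.51 to 0.69. The reverse was seen at PP2C50, with a log2 ratio of -0.01, where 3 of 5 measured neighbours passed the 2-fold rule upwards, up to 3.52. Beside PP2C49, 1 neighbour reached 6.06.

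**Figure D3:**
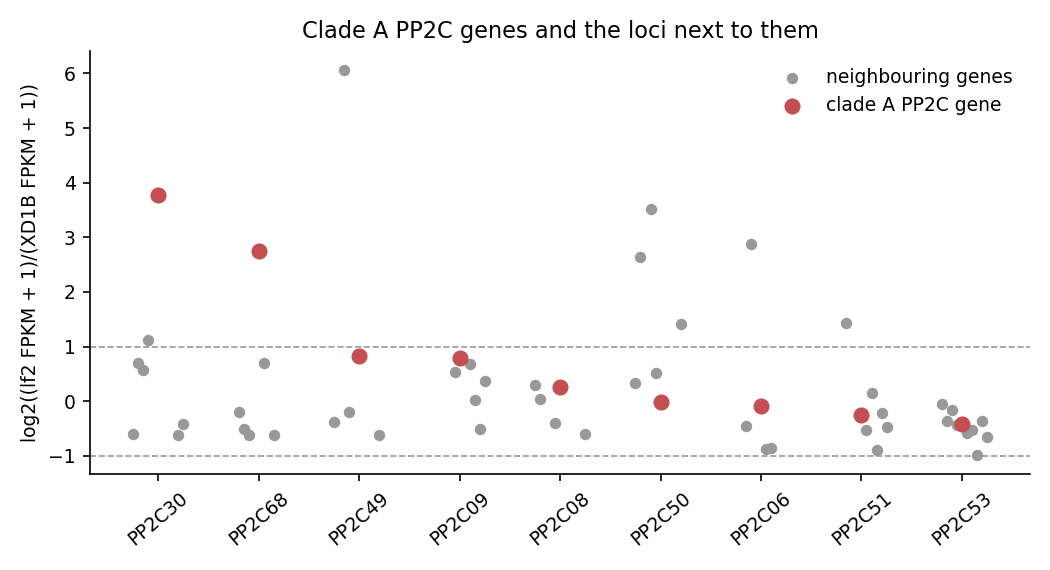
Log2 ratio of each clade A PP2C gene (red) and of those among the 5 loci on each side that reached FPKM 1 in at least 1 library (grey), in identifier order; dashed lines mark the 2-fold rule. PP2C30, PP2C68 and, by a small margin, PP2C09 lie above all their neighbours, and PP2C50 lies below its own.

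Other PP2C genes with a RefSeq entry, a part of the family, served as a comparison. Of 45 PP2C genes other than the 9, all placed by the RefSeq table, 44 reached FPKM 1, 3 of them only in lf2. Of the 45, 10 (22.2%) passed the 2-fold rule upwards and 1 (2.22%) downwards, against 15.3% and 8.23% of all genes. The median log2 ratio over all 45 was 0.16. In clade A 2 of 9 passed upwards, also 22.2%, and the shares were not compared by a test. After rescaling to the median gene the counts upwards were 16 of 45 and 4 of 9, against 19.6% of all genes. Summed FPKM of these 45 genes was 774 in XD1B and 967 in lf2, a ratio of 1.25. The highest log2 ratio among them was 3.10, below that of PP2C30 and above that of PP2C68. This list was added after the values of the clade A genes had been seen.

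The partners of the phosphatases were followed through the pathway, starting with the PYL receptors. Of 12 receptor genes, 7 reached FPKM 1, 2 of them only in lf2. Those 2 passed the 2-fold rule upwards, 2 of the 7 measured genes or 16.7% of the 12, and 0 passed it downwards. Of all genes that reached FPKM 1, 15.3% passed upwards and 8.23% downwards, so the share of the 12 has another base. RefSeq holds an entry for only 1 of the 12, PYL11 (LOC_Os05g12260), at FPKM 23.1 and 27.4, 1.19 times the XD1B level (interval 1.04 to 1.35). The other 11 are therefore not named, and their place in the list rests on general knowledge of the family. Both calls are lost with a pseudocount of 5 or at FPKM of at least 5. Summed receptor FPKM was 171 in XD1B and 134 in lf2, but 1 unnamed receptor gene, at 129 and 80.0, held 75.5% of the XD1B sum. The other 11 summed to 41.7 and 54.4, the opposite direction. The summed clade A PP2C level was 0.640 of the receptor sum in XD1B and 1.38 of it in lf2. Without that receptor gene it was 2.62 and 3.42 times the sum, and without PP2C30 it was 0.618 and 0.897 of the full sum.

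All 10 SnRK2 kinase genes, called SAPK in rice, reached FPKM 1 in both libraries. The 2-fold rule was passed upwards by 2 of them (20%), downwards by 1 (10%) and by 7 in neither direction. These counts are near the shares of all genes, 15.3% upwards and 8.23% downwards. Their median log2 ratio was -0.31, as in all genes. SAPK6 stood at FPKM 12.4 in XD1B and 68.8 in lf2, 5.56 times the XD1B level (interval 5.11 to 6.06). SAPK1 stood at 4.49 and 29.5, 6.57 times the XD1B level (interval 5.71 to 7.60). SAPK7 was lower, at 56.8 and 25.7, 0.452 times the XD1B level (interval 0.421 to 0.485), a call that ends after rescaling to the median gene. SAPK8, SAPK9 and SAPK10 are the members whose kinase activity ABA raises in rice. SAPK8 stood at 60.2 and 38.4, a log2 ratio of -0.63. SAPK9 and SAPK10 were low in both libraries, with log2 ratios of -0.11 and 0.35. Summed kinase FPKM was 209 and 225, so the phosphatase sum was 0.523 of the kinase sum in XD1B and 0.824 in lf2.

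Of 8 bZIP and B3 transcription factor genes, 7 reached FPKM 1, 1 of them only in lf2. Of the 8, 1 (12.5%) passed the 2-fold rule upwards and 0 downwards, against 15.3% and 8.23% of all genes. The median log2 ratio over all 8 was -0.08. RefSeq has no entry for 5 of the 8, the 1 that passed among them. After rescaling to the median gene 2 passed upwards, against 19.6% of all genes. The median over the measured genes then turned from -0.16 to 0.23. BZIP23, which activates ABA response genes in rice, stood at 13.7 and 24.2 FPKM, 1.77 times the XD1B level (interval 1.61 to 1.95), close to that of PP2C09. TRAB1, a bZIP factor that binds the ABA response element, stood at 29.3 and 26.2, 0.894 times the XD1B level (interval 0.823 to 0.971). VP1, a B3 factor of seed maturation, stood at 0.0134 and 0.0143, from at least 1 fragment in each library.

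Genes of ABA synthesis and breakdown had a higher median ratio than the receptor, phosphatase, kinase and transcription factor lists, a comparison made without a test. Of 9 synthesis and catabolism genes, 6 (66.7%) passed the 2-fold rule upwards and 0 downwards, against 15.3% and 8.23% of all genes. The median log2 ratio over all 9 was 2.35. RefSeq has no entry for 4 of the 9, and 3 of the 6 are among those. Of the 5 genes with an entry 3 passed, with a median of 1.08. Of the 8 that reached FPKM 1, 3 did so only in lf2. NCED3, one of the dioxygenases that cleave the carotenoid precursor, stood at FPKM 1.68 and 12.7, 7.54 times the XD1B level (interval 6.27 to 9.13). ABA8OX1, a hydroxylase that starts the breakdown of ABA, stood at 1.90 and 78.3, 41.2 times the XD1B level (interval 32.0 to 53.9). ABA8OX2 stood at 11.6 and 25.6, 2.20 times the XD1B level (interval 2.02 to 2.41), and ABA8OX3 at 2.50 and 3.28, 1.31 times the XD1B level (interval 0.878 to 1.97). ZEP, the zeaxanthin epoxidase of the early pathway, stood at 10.1 and 11.3, 1.12 times the XD1B level (interval 0.959 to 1.30). Genes of both the making and the breaking down of ABA were thus among those higher.

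A further list held 9 LEA, dehydrin and SALT genes, taken as ABA-responsive, though their response to ABA was not tested here. Of these, 8 reached FPKM 1. The rule was passed upwards by 7 (77.8% of the 9) and downwards by 0, against 15.3% and 8.23% of all genes. The median log2 ratio over all 9 was 2.67, the value of EM, and 2.26 without EM, and 6 reached FPKM 1 only through lf2. Among genes with a RefSeq entry, the largest log2 ratios were those of SALT, a lectin gene, at 0.299 FPKM in XD1B and 5129 in lf2, and of the dehydrin gene RAB16A (RAB21 in RefSeq), at 0.427 and 22.8. RAB16B was listed at 0 in XD1B and at 7.02 in lf2, from at least 199 fragments. EM was listed at 0 and 5.37, and its fragments could be resolved only to at least 5, and 5 alone would not separate the libraries. Without EM, 6 of 8 passed the rule. DHN1, a dehydrin gene already abundant in XD1B, stood at FPKM 56.1 and 123, 2.20 times the XD1B level (interval 2.09 to 2.31). RAB16C stood at 0.778 and 4.09, 5.26 times the XD1B level (interval 3.14 to 9.28). LEA3 (LEA19 in RefSeq) did not separate the libraries, at 2.24 and 2.45, 1.09 times the XD1B level (interval 0.668 to 1.79).

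**Figure D4:**
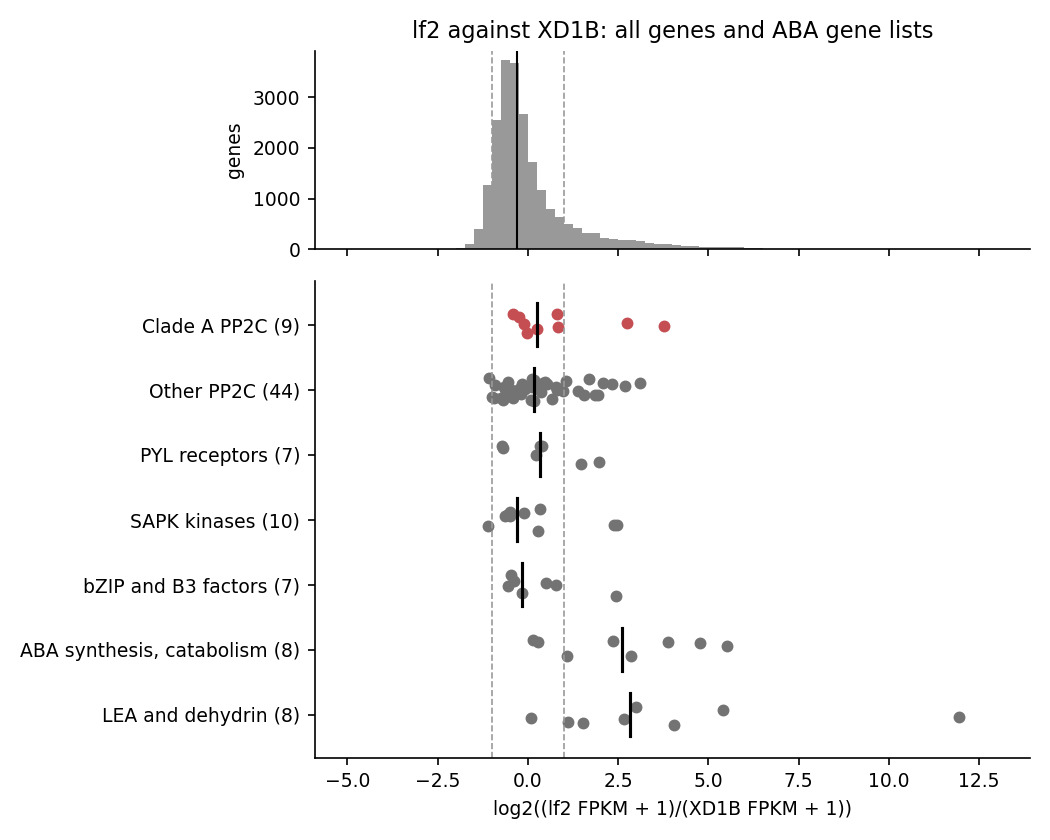
Upper panel, number of genes by log2 ratio (lf2 over XD1B, 1 added to each FPKM) among 22150 genes, with the median of -0.31 as a solid line. Lower panel, the same ratio for each gene of a list with FPKM of at least 1 (number of such genes in brackets), with the median of those genes as a bar; dashed lines mark the 2-fold rule. Clade A PP2C genes are in red, 2 of them beyond 2-fold, and the synthesis and LEA lists lie furthest to the right.

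Both libraries carried the transcripts of young panicle tissue. MADS1, MADS6, MADS7, DL and OSH1 summed to FPKM 472 in XD1B and 194 in lf2. Lower levels in lf2 were seen for 5 of 5 genes, a direction that most genes shared. A log2 ratio of 0 or more was found for 34.8% of the 22150 genes. Of the 5, 4 passed the 2-fold rule downwards, against 8.23% of all genes. MADS1 was nearest the rule among these 4, at a log2 ratio of -1.36. The 4 calls were not recomputed after rescaling to the median gene, where 1.73% of all genes passed downwards. The leaf genes RCA and RBCS summed to 15.5 and 9.63. All 6 heat shock and jasmonate or wounding genes examined passed the 2-fold rule upwards, against 15.3% of all genes. Their sum was 32.9 in XD1B and 644 in lf2. Of 3 reference genes, 3 were lower in lf2, as were most genes, and 0 passed the 2-fold rule. Their sum was 1040 in XD1B and 727 in lf2. That ratio of 0.699 stood beside a median ratio of 0.760 over genes that reached FPKM 5 in both libraries. ACT1, the 1 reference gene with a RefSeq entry, stood at 353 and 188, 0.534 times the XD1B level (interval 0.520 to 0.549). None of these lists stood at 0 in either library. These marker levels move with the same genotype contrast as PP2C30, PP2C68 and the ABA lists, and their part in the PP2C differences was not tested. With 1 library each, the genotype, the collection and the handling of the tissue cannot be told apart.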

How the data were processed

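The authors deposited 1 table of FPKM values per gene, with 1 column per library, a unit taken from the file name and the range of values. RNA was extracted from whole tissue with a kit, per the labels' protocols. The aligner, counter, build and annotation stay unnamed, being not given in the sources used here. Library totals were recovered from the FPKM values of genes at 1 fragment, as the total that makes gene lengths whole numbers. With these totals, whole fragments and a whole length were found for 100% of 1000 genes sampled among those above 0 and under FPKM 5 in both libraries, within 0.0002 fragments plus 3e-07 of the number, and for 0.7% with wrong totals. Fragments per gene are lower bounds, since a common factor cannot be seen. Ratio intervals are exact Clopper-Pearson 95% intervals, intervals of levels exact Poisson, and that of a sum of levels a normal approximation on the log scale. All were computed from these lower bounds, so an interval can be wider than the true fragments would give. They cover counting error only.

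A difference was log2((lf2 + 1)/(XD1B + 1)) over genes that reached FPKM 1 in at least 1 library. Percent shares of a list are over all its members, also those below FPKM 1, while the background holds only genes that reached it. No test was made, as each group holds 1 library. Members and lists were chosen with earlier results of these data known. Named are all members and, from each pathway list, up to 4 genes with a RefSeq entry and the largest ratios, plus the ABA-activated kinases, ZEP and genes set beside them, picked after their values were seen. RefSeq (ASM3414082v1) was used for names and order only; 1 reference gene, whose symbol lies there on another chromosome, was left out. No sequence was used here. The steps were tested on simulated data. Software was matplotlib 3.10.9, scipy 1.17.1, pandas 2.3.3, numpy 2.4.6 and Python 3.11.15, and the seed was 1. Alternatives were pseudocounts of 0.1 and 5, no filter, FPKM of at least 5, a 4-fold rule, and rescaling to a median ratio of 1 or a sum of 1000000.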

Additional observations from a re-analysis of the deposited data

How the results depend on the processing

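No paired analysis was possible because neither genotype has a second library; for the same reason none was left out in turn. Restricting lists to members with a RefSeq entry, the list of other PP2C genes, and sums or medians without 1 gene were chosen after seeing the data; the remaining settings were planned. PP2C30 and PP2C68 were at least 2-fold higher under all 6 alternatives of pseudocount, filter and scaling, and also at 4-fold. Their log2 ratios ranged from 2.99 to 4.17 and from 1.25 to 4.39, the lowest with a pseudocount of 5.

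Rescaling to a median ratio of 1 divides every lf2 value by 0.760 and gave 4 members at least 2-fold higher, a summed ratio of 2.24 and a median log2 ratio of 0.64 for clade A. It gave medians of 0.69 for PYL, 0.035 for SAPK, 0.23 for bZIP and B3 and 0.51 for other PP2C genes, and left 389 genes in all at least 2-fold lower. A sum of 1000000 gave a summed ratio of 1.78. Medians here are over genes that pass the filter, 2.61 for synthesis and catabolism and 2.84 for LEA and dehydrin genes with the settings of the report. With a pseudocount of 0.1, PP2C49 passed the 2-fold rule at 1.16, 2978 genes were at least 2-fold lower, and the medians were 3.75 for synthesis and catabolism and 5.61 for LEA and dehydrin genes. With a pseudocount of 5 these were 1.35 and 1.17, with 2183 genes higher and 648 lower, since the pseudocount moves low genes by construction. At FPKM of at least 5 the SAPK median was -0.50, over fewer genes. With RefSeq entries only, the synthesis and catabolism median was 1.08, over fewer genes. PP2C06 and PP2C50 changed sign with the scaling. Depth limits PP2C68, with at least 11 fragments in XD1B, and PP2C49 and PP2C51.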

Other observations

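Outside clade A, the PP2C genes at least 2-fold higher in the lf2 library spanned a wide range of levels; those named here were chosen after their values had been seen. PP2C39 stood at FPKM 22.7 in XD1B and 68.2 in lf2, 3.01 times the XD1B level (interval 2.85 to 3.18), and PP2C34, also called BIPP2C2, at 18.8 and 63.7, 3.38 times the XD1B level (interval 3.15 to 3.64). In lf2 both were about as abundant as PP2C30, at 65.2. PP2C61 stood at 0.188 and 6.66, levels close to those of PP2C68, 35.4 times the XD1B level (interval 13.5 to 132). PP2C77 had the highest log2 ratio of the 45, 3.10, at 0.0223 and 7.75 FPKM, from at least 1 fragment in XD1B, so its ratio has an interval of 61.8 to 13735. PP2C33 was the 1 gene beyond the rule downwards, with levels of 36.2 and 16.5, 0.455 times the XD1B level (interval 0.421 to 0.492). That call is lost with a pseudocount of 5 and when lf2 is rescaled to the median gene, and 2 genes are called with a pseudocount of 0.1 or a sum of 1000000.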
